A study of Schizosaccharomyces pombe with 9 samples.

Results

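Sites of RNA crosslinking to TAP-tagged Clr3, a histone deacetylase of the fission yeast SHREC complex, were examined inside annotated long non-coding RNAs (lncRNAs) of Schizosaccharomyces pombe. A site is 1 row of a deposited table, a T on the transcribed strand that was read as C in some reads; m is the number of converted reads and r the number of reads that cover the position. A row was a member where it lay on the sense strand inside a gene named SPNCRNA or of biotype lncRNA or ncRNA, and not inside a same-strand mRNA, tRNA, rRNA, snRNA, snoRNA, srp7, mrp1, rrk1, ter1 or mamRNA. There were 265 such rows among 11429 nuclear rows: 190 of 6560 in library 1 and 72 of 4742 in library 2, the replicates with crosslinking, and 3 of 127 in the library without it. They fell in 147 of 7165 lncRNA genes. Genes that share a row were joined, which left 144 loci, and 143 of these had a row after crosslinking: 53 on chromosome I, 54 on II and 36 on III.

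The 3 PAR-CLIP libraries were 2 crosslinked ones, replicate 1 (library 1) and replicate 2 (library 2), and 1 control. The control is known to lack crosslinking from its title and the series design alone, since its description and protocol labels are those of the crosslinked samples. Per the labels, all came from an h+ strain with the ura4-delta18, leu1-32 and ade6-M216 alleles, a reporter written imr1R(NcoI)::ura4+ and the tagged gene clr3-3HA-TAP::kan MX, so the control cells carry the tag too. Cells for all 3 libraries were kept at 30 °C in CSM minimal medium that held 4% glucose and uracil at 10 mg/l. They received 100 µM 4-thiouracil, a base analogue that is built into RNA and crosslinks to protein under long-wave light, and a further 900 µM for the last 4 h. Light at 365 nm was given at 12 J/cm2 to the crosslinked samples. The lysate spent 2 h on IgG beads. RNase T1, an enzyme specific for G, shortened the RNA before library preparation. The 6 RNA-seq samples of the series were not analysed here. No library from untagged cells was included, so crosslinks of Clr3 and of other recovered proteins cannot be told apart.

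Clr3 removes acetyl groups from histone H3 and acts with Clr1, Clr2 and the remodeller Mit1 in SHREC, which is best known for silencing in heterochromatin. Long non-coding RNAs of fission yeast are transcribed by RNA polymerase II, many of them antisense to or upstream of protein-coding genes, and most are removed quickly by the nuclear exosome. Transcription of some of them through a promoter represses the gene downstream, as for nc-tgp1 and the transporter gene tgp1.

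The rows fell into a small set with m of at least 2 and a larger one with m = 1. With m of at least 2 there were 58 rows in crosslinked library 1, 33 in crosslinked library 2 and 3 in the control. With m = 1 there were 132 rows in crosslinked library 1, 39 in crosslinked library 2 and 0 in the control, and every one of them was 1 converted read of 3. Just inside the threshold, 15 rows with m = 2 in crosslinked library 1 had 3 to 62 reads (median 26) and 13 in crosslinked library 2 had 5 to 67 (median 49). The control held no row of m = 1 in any class of RNA, so counts of 0 there do not show absence. Only called positions are listed, so the depth of each library is unknown; the nuclear rows carried 586303, 262083 and 15100 reads in that order.

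The sequences that carry most of the repeated conversions come first. They are the stretches around the rows with m of at least 2 in the 5 loci that had a position called in both crosslinked libraries, with 20 nt on either side. Capital T marks a position with m of at least 2 in either crosslinked library. Letters are from the RefSeq genome (ASM294v3), 5′ to 3′ on the transcribed strand; the submitters name build ASM294v2, and each nuclear row of the 3 tables lay at a T of this sequence.
SPNCRNA.942 (chrI:3851015-3851153, plus strand): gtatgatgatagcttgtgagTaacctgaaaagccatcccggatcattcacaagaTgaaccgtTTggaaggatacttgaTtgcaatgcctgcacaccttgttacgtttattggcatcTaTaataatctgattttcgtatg
SPNCRNA.87 (chrI:3177918-3178038, plus strand): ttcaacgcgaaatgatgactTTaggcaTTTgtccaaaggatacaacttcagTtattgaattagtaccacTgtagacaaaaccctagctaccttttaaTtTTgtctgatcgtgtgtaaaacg
SPNCRNA.808 (chrI:2265671-2265848, minus strand): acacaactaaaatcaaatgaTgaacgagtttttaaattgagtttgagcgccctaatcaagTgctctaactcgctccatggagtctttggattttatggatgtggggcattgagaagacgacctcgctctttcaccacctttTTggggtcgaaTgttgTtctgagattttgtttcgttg
SPNCRNA.1490 (chrII:2145678-2145803, minus strand): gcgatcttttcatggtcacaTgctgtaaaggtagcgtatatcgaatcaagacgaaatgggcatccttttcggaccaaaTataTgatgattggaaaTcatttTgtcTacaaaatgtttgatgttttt
SPNCRNA.491 with SPNCRNA.1189 (chrIII:1360409-1360555, plus strand): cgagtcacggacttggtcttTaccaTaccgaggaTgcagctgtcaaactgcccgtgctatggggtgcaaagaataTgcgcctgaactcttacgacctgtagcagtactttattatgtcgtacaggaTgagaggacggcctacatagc

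In SPNCRNA.942 7 positions are marked within 99 nt, in SPNCRNA.87 10 within 81 nt, in SPNCRNA.808 6 within 138 nt, in SPNCRNA.1490 6 within 86 nt and in SPNCRNA.491 5 within 107 nt. The marked positions were thus confined, in these 5 loci, to a stretch shorter than the annotated RNA. Neighbouring Ts were often marked together, as at 3177945, 3177946 and 3177947 of SPNCRNA.87, where much the same reads cover all 3 positions. Sums of reads over neighbouring rows therefore count reads more than once. No row in either crosslinked library had a second exact copy of its 41 nt window in the nuclear genome.

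By conversions, SPNCRNA.942 led (lncRNA, chromosome I, 3851024 to 3851310, plus strand, 287 nt). It held 63 converted reads at 5 positions in crosslinked library 1, 45 at 4 positions in crosslinked library 2 and 0 in the control, or 0.381% ± 0.0579 of all nuclear conversions (SD, n = 2). Its main position, 3851093, was converted in 27 of 806 reads (3.35%, 95% Wilson interval 2.31 to 4.83) in crosslinked library 1 and in 26 of 336 (7.74%, 5.34 to 11.1) in crosslinked library 2. A second shared position, 3851133, was converted in 15 of 898 reads (1.67%) and 11 of 383 (2.87%). No annotated gene lies on the other strand, and the nearest protein-coding genes on its own strand are 6900 nt upstream and 1627 nt downstream.

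SPNCRNA.87 (lncRNA, I, 3177931 to 3178309, plus, 379 nt) held 64 conversions at 9 positions in crosslinked library 1, 21 at 5 positions in crosslinked library 2 and 0 in the control. It took 0.345% and 0.197% of nuclear conversions in the crosslinked libraries. Its 10 positions lie at nt 8 to 88 from the annotated 5′ end, 5 of them at nt 8 to 17 and 3 at nt 85 to 88. At 3177946, nt 16, 13 of 227 reads (5.73%) were converted in crosslinked library 1 and 5 of 97 (5.15%) in crosslinked library 2. Its 4 shared positions are the largest number among these loci.

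The other 3 loci with shared positions had fewer conversions. SPNCRNA.808 (I, 2265549 to 2265838, minus, 290 nt) held 22 in crosslinked library 1, 14 in crosslinked library 2 and 0 in the control, with 1 shared position at nt 133. SPNCRNA.1490 (II, 2145545 to 2145829, minus, 285 nt) held 26, 8 and 0 in the same order, with 3 shared positions. SPNCRNA.1189 and SPNCRNA.491 overlap (III, 1358647 to 1360746, plus), and all 7 rows lay in the part they have in common, with 16, 17 and 0 conversions and 2 shared positions. The order of SPNCRNA.808, SPNCRNA.1490 and this overlapping pair differed between the replicates. Reads cannot be split between the pair. SPNCRNA.808 starts 149 nt downstream of rpc2, the second-largest subunit gene of RNA polymerase III, on the same strand, and cox5 overlaps SPNCRNA.1189.

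**Figure D1:**
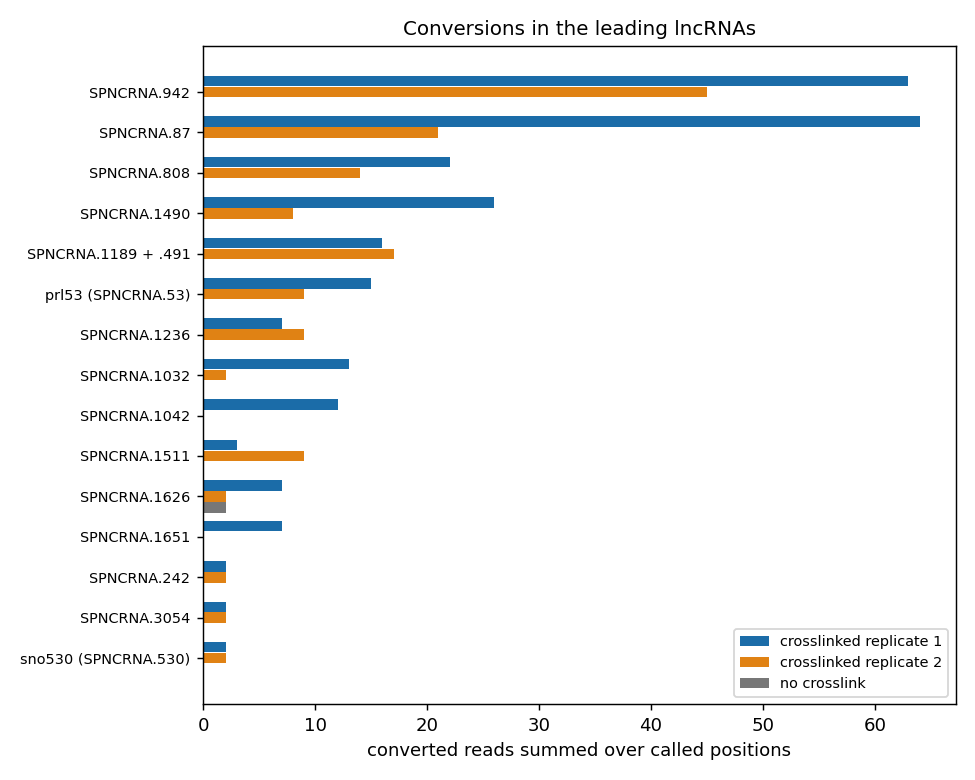
Converted reads summed over the called positions of each locus (x axis) for the 15 loci that lead by conversions or have m of at least 2 in both crosslinked libraries (y axis); bars are single libraries. SPNCRNA.942 and SPNCRNA.87 stand first with 63 and 64 conversions in crosslinked library 1, and the control has a bar only at SPNCRNA.1626.

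**Figure D2:**
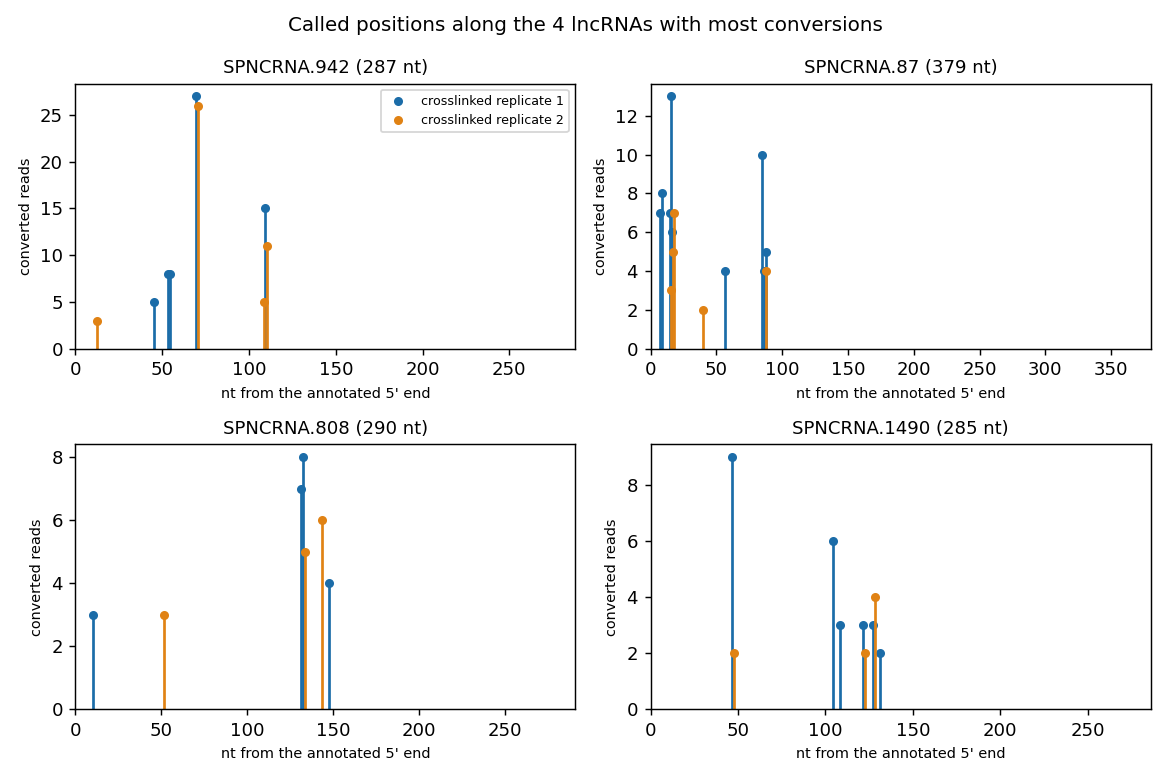
Called positions along the 4 loci with most conversions, as nt from the annotated 5′ end (x axis) against converted reads (y axis); points of the 2 crosslinked replicates are moved apart slightly so that both show. All points lie within the first 148 nt.

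Conversions were concentrated in few RNAs. The 2 leading loci held 30.4% of the lncRNA conversions in crosslinked library 1 and 36.5% in crosslinked library 2, and the 6 leading loci 49.3% and 63.0%. At the other end, 115 loci had rows of m = 1 alone, and 95 loci had a single row in all 3 tables.

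Of the 143 loci, 24 had a row in both crosslinked libraries and 12 had a row with m of at least 2 in both. Beside the 5 above, the 12 were prl53, SPNCRNA.1236, SPNCRNA.1032, SPNCRNA.1511, SPNCRNA.242, SPNCRNA.3054 and sno530. None of these 7 had a position called in both. The control had a row in 0 of the 12.

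prl53 (SPNCRNA.53, I, 4008054 to 4009905, minus, 1852 nt) is 1 of the RNAs first described as polyadenylated transcripts without a long open reading frame. It held 15 conversions at 4 positions in crosslinked library 1 and 9 at 4 other positions in crosslinked library 2. Its positions had 133 to 311 reads and 49 to 78 reads. They spread over nt 552 to 1651, far wider than in the 5 loci printed above. The mRNA gene SPAC27E2.11C overlaps it on the same strand; its rows lay at least 219 nt from that gene or SPAC27E2.03C, and keeping rows inside mRNAs raised the mean of its conversions from both libraries to 18 against 12.

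SPNCRNA.1236 (III, 1859963 to 1860577, plus) held 7 conversions at 1 position in crosslinked library 1 and 9 at 3 positions in crosslinked library 2. It overlaps eaf1 on the other strand, away from these positions. SPNCRNA.1511 (II, 2416379 to 2416742, minus) held 3 and 9, and SPNCRNA.1032 (I, 4869466 to 4870169, plus) 13 and 2. The replicates thus put SPNCRNA.1032 and SPNCRNA.1511 in opposite orders. SPNCRNA.242, SPNCRNA.3054 and sno530 held 2 conversions in each crosslinked library. The name of sno530 (SPNCRNA.530, I, 1966483 to 1966635, minus) points to a small nucleolar RNA, but its biotype in the annotation is ncRNA, and the rule takes it; its rows had 14 and 5 reads. SPNCRNA.1236, SPNCRNA.3054, SPNCRNA.242 and sno530 are printed because their rows from the 2 libraries lay within 48, 9, 35 and 4 nt without coinciding.
SPNCRNA.1236 (chrIII:1860198-1860285, plus strand): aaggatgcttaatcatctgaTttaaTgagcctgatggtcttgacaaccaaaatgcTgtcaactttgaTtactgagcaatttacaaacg
SPNCRNA.3054 (chrI:2349639-2349687, plus strand): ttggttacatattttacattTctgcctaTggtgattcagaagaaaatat
SPNCRNA.242 (chrI:4154462-4154536, plus strand): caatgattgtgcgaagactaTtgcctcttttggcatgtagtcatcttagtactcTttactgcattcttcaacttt
sno530 (chrI:1966514-1966557, minus strand): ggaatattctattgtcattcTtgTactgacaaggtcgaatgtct

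Another 16 loci had m of at least 2 in 1 crosslinked library: 15 in replicate 1, with 2 to 12 conversions (median 3), and 1, nc-tgp1, in replicate 2 with 2. SPNCRNA.1042 (I, 5009787 to 5011504, minus) reached 12 conversions in crosslinked library 1, at the neighbouring positions 5011353 (6 of 513 reads) and 5011354 (6 of 511), and had no row in crosslinked library 2. SPNCRNA.1651 (II, 3962699 to 3963115, plus) had 7 there and no row in crosslinked library 2. The 12 loci with rows in both libraries but not m of at least 2 in both had 2 to 9 conversions in all and 0 shared positions.

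**Figure D3:**
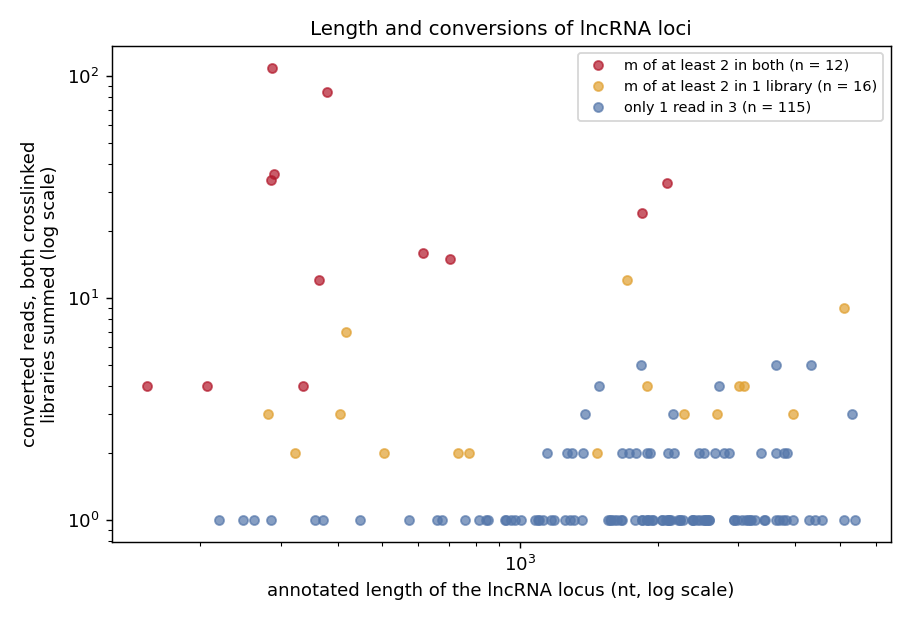
Annotated length (x axis, log scale) against converted reads summed over both crosslinked libraries (y axis, log scale), 1 point per locus. The loci with m of at least 2 in both lie at 153 to 2100 nt, and the 115 loci with 1 read in 3 alone have a median length of 2049 nt and at most 5 conversions.

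Length differed between the sets. The 12 loci with m of at least 2 in both had a median length of 350 nt, and 8 of them (66.7%) were under 400 nt. The 115 loci with m = 1 alone had a median of 2049 nt, and 6 (5.22%) were under 400 nt. Among all 7165 lncRNAs the median was 618 nt and 31.2% were under 400 nt. Of the 79 positions with m of at least 2, 47 lay within 200 nt of the annotated 5′ end, and of the 171 positions with m = 1, 17 did. The RNAs around these positions differed in length too, with medians of 379 and 2165 nt over the positions. With each RNA divided into 3 equal parts, 30, 36 and 13 of the 79 lay in the 5′, middle and 3′ parts, and 62, 75 and 34 of the 171. Relative to length, the 2 sets were thus spread in a similar way. The part of length itself in the count of single-read rows was not tested.

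The sets differed as well in what lies opposite. In crosslinked library 1, 5 of 58 rows with m of at least 2 (8.62%, 3.74 to 18.6) lay opposite a protein-coding gene, and 75 of 132 rows with m = 1 (56.8%, 48.3 to 65.0) did. In crosslinked library 2 it was 0 of 33 (0%, upper bound 10.4) and 21 of 39 (53.8%, 38.6 to 68.4). Of all 1950949 T positions of the sense lncRNA space, 67.2% are opposite a protein-coding gene. Counted by row, those with m of at least 2 were thus largely in lncRNA parts with no mRNA on the other strand, in both libraries. A few loci weigh heavily in this count. SPNCRNA.942 and SPNCRNA.87, with no gene opposite, held 5 and 9 of the 58 rows and 4 and 5 of the 33. Other loci with such rows, as SPNCRNA.1042 and SPNCRNA.1511, do overlap a protein-coding gene on the other strand, away from their rows. No test was made; rows of 1 locus share reads. Close to a same-strand mRNA, within 100 nt, lay 1 row in crosslinked library 1 and 2 in crosslinked library 2.

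As shares of the library, lncRNA rows were 2.90% of nuclear rows (2.52 to 3.33) in crosslinked library 1, 1.52% (1.21 to 1.91) in crosslinked library 2 and 2.36% (0.807 to 6.72) in the control. The replicates differed chiefly in rows with m = 1, where lncRNAs made 3.88% (3.28 to 4.59) and 1.26% (0.925 to 1.72). At m of at least 2 they made 1.84% (1.42 to 2.37) and 2.00% (1.43 to 2.79), and 1.88% ± 0.0116 of the conversions of such rows (SD, n = 2), against 0.791% (0.384 to 1.62) in the control from 7 conversions in 12 reads. The mRNA share of these conversions was also lower in the control, at 18.1% against a mean of 43.5%. Structural RNAs, such as rRNAs, tRNAs and snoRNAs, took 70.4% there against 51.8%, and antisense or intergenic rows 10.7% against 2.85%. Labels do not say that the replicates were separate cultures, so their spread may be technical. The lncRNA space holds 24.3% of the T positions of the nuclear genome on both strands; RNA abundance was not measured in these tables.

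The replicates shared 12 lncRNA positions, all in the 5 loci printed above and all with m of at least 2 in both. These are 6.32% of the rows of crosslinked library 1 and 16.7% of those of crosslinked library 2, beside 4.21% and 5.82% of all nuclear rows. Among rows with m of at least 2 they are 20.7% (12.3 to 32.8) and 36.4% (22.2 to 53.4), beside 8.6% and 16.3% of all nuclear rows of that kind. For mRNA rows of that kind the shares were 2.13% (1.64 to 2.75) and 4.28% (3.29 to 5.55), and for rows in structural RNAs such as rRNAs, tRNAs and snoRNAs they were 47.5% (42.8 to 52.3) and 57.6% (52.4 to 62.7). The lncRNA shares thus lay between those of mRNAs and of structural RNAs. The 12 positions come from 5 loci and some share reads, while the intervals treat rows as independent, so they are too narrow. None of the 132 and 39 lncRNA rows with m = 1 was called in the other library, and of all nuclear rows of that kind 0.118% and 0.227% were, so these counts of 0 are near the background. The lncRNA rows with m of at least 2 had more reads than mRNA rows, with medians of 207 against 47 in crosslinked library 1 and 73 against 42 in crosslinked library 2; the part of coverage in the sharing was not tested.

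At the 12 shared positions the extent of conversion was compared between replicates by the two-sided Fisher exact test on reads, with Benjamini-Hochberg adjustment over all 276 shared nuclear positions. None of the 12 passed an adjusted p of 0.05, and 0% of the 276 did; 16 of 276, and 1 of the 12, had an unadjusted p under 0.05, and a Bonferroni adjustment called 0. That 1 was the main position of SPNCRNA.942 (3.35% in library 1 and 7.74% in library 2, unadjusted Fisher exact p = 0.00291, adjusted 0.268). Conversion was lower in crosslinked library 1 at 9 of the 12, higher at 2 and equal at 1, and it was lower there at 202 of all 276. Only called positions enter, and each of the 12 had fewer reads in crosslinked library 2. The part of calling in this direction was not tested. This test compares 2 libraries and does not show that conversion was alike.

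**Figure D4:**
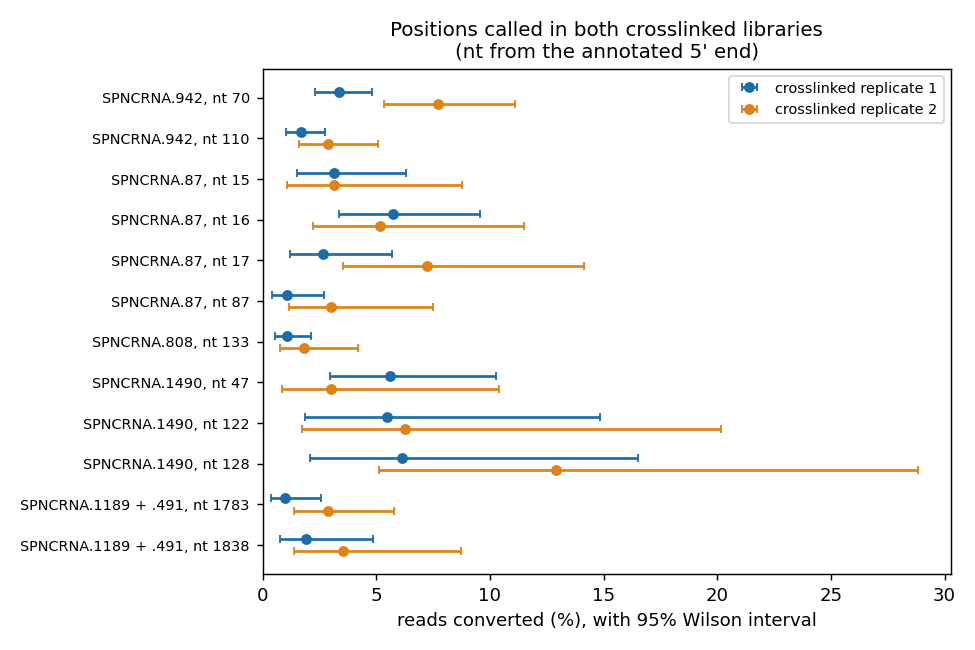
Percent of reads converted (x axis) at the 12 lncRNA positions called in both crosslinked libraries (y axis, nt from the annotated 5′ end of the locus), with 95% Wilson intervals. The intervals overlap except at nt 70 of SPNCRNA.942, where they are 2.31 to 4.83 and 5.34 to 11.1.

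Over rows with m of at least 2, the median lncRNA conversion was 2.72% in crosslinked library 1 and 3.70% in crosslinked library 2, or 3.21% ± 0.695 (SD, n = 2), and mRNA rows had 4.72% ± 0.393. The lncRNA rows were also deeper, as given above, and the part of depth in this difference was not tested. In the control 3 lncRNA rows were converted in 2 of 3, 2 of 5 and 3 of 4 reads.

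The deposited occupancy gave a further measure. Dividing m by it returns a whole number at every row, to within 0.0001, taken here as the depth of a reference library that the sources used here do not name. For lncRNA rows with m of at least 2 this reference depth had a median of 775 ± 226 (SD of the medians of 2 libraries), and for mRNA rows 1065.5 ± 463. It ranged widely, as between 7 and 99977 in crosslinked library 1. At SPNCRNA.808 the main position had a reference depth of 99962, near the highest in any table (100006), and 743 and 275 reads. The highest values were close in all 3 libraries, at 100006 and 100006 after crosslinking and 99910 in the control. Whether this depth was capped there is not known, so values near them may be lower bounds. At nt 15 to 17 of SPNCRNA.87 the reference depth was 38 to 40, with 224 to 227 reads in crosslinked library 1 and 96 to 97 in crosslinked library 2. The reference depth varied within each RNA too: in crosslinked library 1 it ran from 7 to 99977 over the rows of SPNCRNA.808 and from 35 to 483 over those of SPNCRNA.87.

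Reads outnumbered the reference depth at 11 of 58 lncRNA rows with m of at least 2 (19.0%, 10.9 to 30.9) in crosslinked library 1 and 4 of 33 (12.1%, 4.82 to 27.3) in crosslinked library 2. For mRNA rows it was 3.12% (2.52 to 3.85) and 1.94% (1.31 to 2.87). SPNCRNA.87 held 8 of these 15 lncRNA rows, and SPNCRNA.491 with SPNCRNA.1189 held 3. A few RNAs thus make up most of this count.

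**Figure D5:**
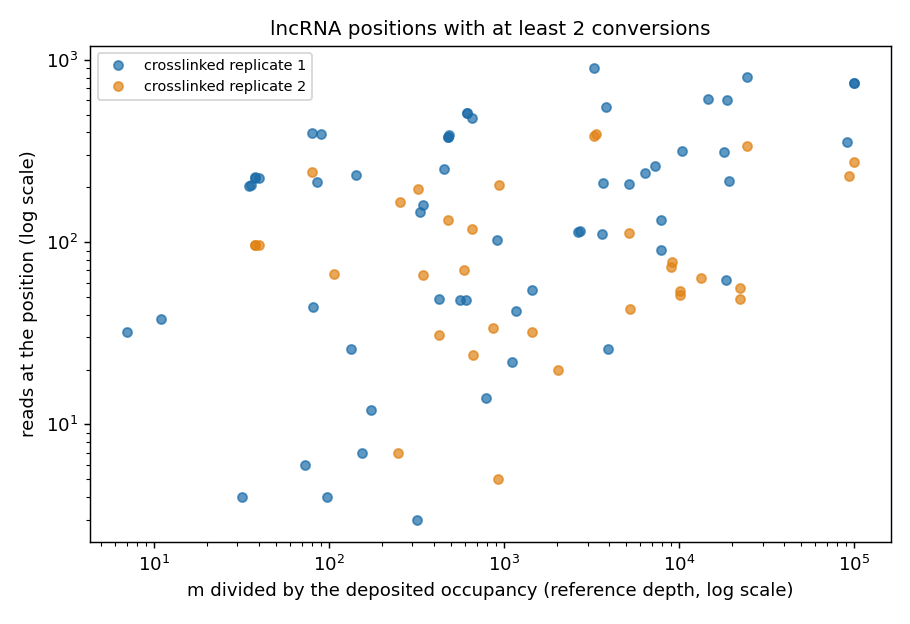
Reference depth (x axis, log scale) against reads at the position (y axis, log scale) for lncRNA rows with m of at least 2, 1 point per row and library. Points run from a reference depth of 7 to 99977, and those of SPNCRNA.87 near 38 sit at 96 to 227 reads.

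Sequence around the sites was described over the 79 distinct positions with m of at least 2, beside all T positions of the sense lncRNA space. A G followed the site in 27 of 79 (34.2%, against 19.3% of all T positions), and in 47 of 171 positions with m = 1 (27.5%). A U lay 2 nt before it in 44.3% against 31.9%, but in 23.4% of positions with m = 1. An A lay 5 nt before it in 16.5% against 32.1%, and in 27.5% with m = 1. A G lay 10 nt after it in 31.6% against 17.9%, and in 21.1% with m = 1. These offsets were picked after the values at 10 nt to either side were seen. A G lay just before it in 15.2% against 16.4%. Within 20 nt on either side, UGUA was found in 15 of 79 windows (19.0% against 18.0%), GUAG in 5 (6.33% against 10.4%), GUAA in 9 (11.4% against 18.8%) and UUAAAC in 1 (1.27% against 1.81%). UUAUUU was found in 1 window (1.27% against 4.86%) and AAUAAA in 3 (3.80% against 4.37%). Motifs were searched on the transcribed strand only; GUAG and GUAA may overlap UGUA. Positions of 1 locus share bases, so these shares rest on fewer than 79 independent windows.

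The 3 RNAs with most conversions summed over both crosslinked libraries share letters that were noticed after their sequences were seen. Each has UGAUGA at its 5′ end and CUGA shortly after its last row; such letters are the cores of boxes C and D, which lie near the ends of box C/D small nucleolar RNAs. UGAUGA starts 6 nt upstream of the annotated start of SPNCRNA.942, 1 nt upstream of that of SPNCRNA.87 and at nt 8 of SPNCRNA.808. The next CUGA begins 7, 3 and 2 nt after the last row of m of at least 2, which gives spans of 126, 95 and 146 nt. These spans depend on where the search began, since SPNCRNA.942 has another CUGA just after its first marked T. In the stretches printed above, CUGA also lies just after the last marked T of SPNCRNA.1236 and of sno530. The share of other RNAs with CUGA at that place was not computed. Between 10 nt before and 15 nt after the annotated start, UGAUGA occurs in 43 of all 7165 lncRNAs (0.6%) and in 16 of the 2236 under 400 nt (0.716%). It occurs in 3 of the 13 RNAs of the 12 loci above (23.1%), but this window was set around the 3 RNAs that prompted it. Searched for anywhere inside annotated RNAs under 400 nt, UGAUGA occurs in 3 of 8 of those loci (37.5%), which are SPNCRNA.808, SPNCRNA.242 and SPNCRNA.1490, against 237 of 2236 (10.6%). UGAUGA with a CUGA anywhere after it occurs in 2 of the 8 (25%) against 83 of the 2236 (3.71%). Both counts include SPNCRNA.808, 1 of the RNAs that prompted the letters, so they are no independent support. In SPNCRNA.1490 UGAUGA lies at nt 109 with no CUGA after it. In SPNCRNA.242 it lies at nt 257, past its rows at nt 123 and 157. The annotation used here gives SPNCRNA.942, SPNCRNA.87 and SPNCRNA.808 the biotype lncRNA, and a match of letters is a description only.

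Of 8 annotated RNAs found by name for their known roles, 4 had a row, and of all 7165 lncRNAs 2.05% had one. The names prt, nam2 and bor were looked up too and were not found. The 4 RNAs were 1489 to 1900 nt long, against a median of 618 nt for all lncRNAs. The part of length in these shares was not tested. Their rows held at most 2 conversions each. nc-tgp1, whose transcription represses tgp1 (SPNCRNA.1698, II, 352335 to 354234, minus), had 2 rows of 1 read in 3 in crosslinked library 1, 1 row of 2 converted reads in 7 in crosslinked library 2 and 0 rows in the control. Its 3 rows lay at 3 positions, at least 595 nt outside tgp1. nam1 (SPNCRNA.1459, II, 1742555 to 1744043, minus), which lies upstream of the kinase gene byr2, had 2 rows in each crosslinked library, all of 1 read in 3, and the nearest was 8 nt from mlo3, which overlaps it on the same strand. sme2, the meiRNA that sequesters Mmi1 in meiosis, had 1 row of 1 read in 3 in crosslinked library 2, and nam3 had 1 in crosslinked library 1. omt3, rse1, prt2 and nc-pho1 had 0 rows in all 3 tables outside mRNAs. Of 56 RNAs named prl, 4 had a row (7.14%): prl53, prl3 with 2 of 26 reads converted, and prl57 and prl59 with 1 of 3, the last 3 in crosslinked library 1 alone.

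The control's 3 rows fell in SPNCRNA.7449, SPNCRNA.1626 and SPNCRNA.698. In SPNCRNA.7449 (III, 1641767 to 1644862, plus) position 1642609 was converted in 4 of 4 reads in crosslinked library 1 and in 3 of 4 in the control, and was not called in crosslinked library 2. It was the only lncRNA position called both after crosslinking and without it, and with 7 of 8 reads converted the Fisher exact test can give no p but 1.0 there, so it says nothing about a difference. Of the 41 nuclear positions tested in that pair 22% passed. SPNCRNA.1626 (II, 3626024 to 3631136, minus) had 5 rows with 7 conversions in crosslinked library 1, 2 rows with 2 in crosslinked library 2 and 1 row with 2 in the control, all at different positions. SPNCRNA.698 had 2 of 3 reads converted in the control and no row in either crosslinked library. The conversions of SPNCRNA.7449 and SPNCRNA.1626 after crosslinking thus stand beside conversions without it.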

How the data were processed

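PAR-CLIP was read from 3 tables of called positions, 1 per library. The authors' deposited counts are m, converted reads, and r, reads covering the position, as single-letter columns per the file headers; that reading rests on the values, since m never exceeded r. The authors' deposited p-value is that of each call (highest 0.00499), per the file headers. The authors' deposited occupancy is a ratio of m to a whole number. Build ASM294v2, Bowtie 1.1.1 and SAMtools are named per the submitters' processing notes. The site caller, its thresholds and the handling of multiply mapping reads were not given in the sources used here. All 6560, 4742 and 127 nuclear rows lay at a T of the RefSeq sequence ASM294v3, whose annotation was used. Mitochondrial and contig rows were not used.

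The members and lists were chosen with earlier results of these data known. Groups came from sample titles. With 2 libraries against 1 no exact permutation p can fall below 1 in 3, so libraries were described. Positions called in 2 libraries were compared by the Fisher exact test (SciPy 1.17.1) with Benjamini-Hochberg adjustment over all such nuclear positions; the test was checked on simulated data. Intervals are 95% Wilson intervals and cover counting error only, since reads are not counted by molecule. Named RNAs were those with m of at least 2 in both crosslinked libraries, the 12 with most conversions, those with a control row, and a list of named RNAs. The stretches printed and the letters UGAUGA and CUGA were chosen after values and sequences were seen. Alternatives changed the minimum of reads, m or p, the handling of mRNAs and control positions, and the libraries used.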

Additional observations from a re-analysis of the deposited data

How the results depend on the processing

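The counts of rows and of loci depended on the rows taken. With at least 20 reads, lncRNA rows numbered 51 in crosslinked library 1 and 31 in crosslinked library 2; with m of at least 2, 58 and 33; with the authors' p at most 0.001, 39 and 20. Loci with a row in both were 11, 12 and 8 under these settings, and 43 to 124 loci had a row when a single replicate was used. Shared positions fell to 7 at the stricter p. These settings take fewer rows by construction, and a single library drops the need for a second. The other 55 recomputed values of the main results stayed within 1.5 times or within the spread between replicates. Among them were the share of nuclear rows (1.52% to 2.90% with a single replicate) and the median conversion (2.72% to 3.70%). For this share, this median and the leading loci the spread is the SD of the 2 libraries. Leaving out 1 replicate cannot move their mean beyond it, so their single-replicate values show nothing about stability. Others of the 55 had little or no room to move. Calls against the control rest on 1 lncRNA position in crosslinked library 1 and 0 in crosslinked library 2. Results defined on m of at least 2 cannot change when only such rows are taken. The 0 calls between replicates held in each setting that gave a value. Of the 12 leading loci, 5 values of 96 moved beyond the spread, 4 at the stricter p and prl53 with rows inside mRNAs kept. The 96 include single-replicate values, which could not move: SPNCRNA.1042 counted as unmoved at 0 conversions and at 12. Shared positions, counts with m of at least 2 in both, and tests between libraries have no value with a single replicate. No paired analysis was possible because the control is a single library. Depth limits most rows: 3 reads stand behind each row of m = 1.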
